A study of Homo sapiens with 12 samples.

Results

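Messenger RNA of MOLM13 cells given the kinase inhibitor SGI-7079 was compared with that of MOLM13 cells given DMSO, the usual solvent of such compounds. MOLM13 is an established human acute myeloid leukaemia line with monocytic features, a KMT2A-MLLT3 fusion and a FLT3 gene that carries an internal tandem duplication; FLT3 is a receptor tyrosine kinase. The labels of the treated libraries give SGI-7079, and the design text of the series gives its dose of 10 nM and its exposure of 24 h; the control libraries are labelled DMSO, with no time given for them. Each group held 3 libraries, so that 6 of the 12 libraries of the series entered the comparison; the other 6 are the same treatment and control in MV411, another FLT3-mutant leukaemia line. The labels call the replicates separate samples and do not say that they were separate cultures, so that p-values measure only how far these samples differ, which can be technical variation. All cells of both groups came from 1 line. The question was which genes respond to SGI-7079 in leukaemia cells with mutant FLT3.

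The internal tandem duplication keeps the FLT3 kinase active without its ligand. Signals then run through the transcription factor STAT5, through the RAS and ERK kinases, and through PI3K and AKT, which hold FOXO transcription factors outside the nucleus. STAT5 targets include feedback inhibitors and PIM kinases, ERK targets include DUSP and SPRY feedback inhibitors and ETS factors, and FOXO targets include brakes on growth and pro-apoptotic genes. SGI-7079 is known as an inhibitor of AXL, a receptor of the same TAM family as MERTK and TYRO3, and the series title names it as an inhibitor of FLT3.

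Promoters of 8 genes are shown first, as examples of motifs whose shares in gene groups are given below. They are the RefSeq sequences of GRCh38.p14, written 5' to 3' in the direction of transcription, with matches to the named motif in capitals, and they were chosen after the matches and the expression values had been seen. PLK1, CDC20 and MKI67 are genes of mitosis and proliferation, and the capitals mark the cell-cycle homology region (CHR, TTTGAA) and the CCAAT box on either strand. PLK1 lies at chr16:23678739-23678908 on the plus strand, CDC20 at chr1:43358781-43359000 on the plus strand and MKI67 at chr10:128126404-128126573 on the minus strand.
PLK1: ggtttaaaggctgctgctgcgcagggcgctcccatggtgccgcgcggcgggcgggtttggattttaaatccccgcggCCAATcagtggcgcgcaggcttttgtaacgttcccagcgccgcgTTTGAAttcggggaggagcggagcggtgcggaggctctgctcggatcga
CDC20: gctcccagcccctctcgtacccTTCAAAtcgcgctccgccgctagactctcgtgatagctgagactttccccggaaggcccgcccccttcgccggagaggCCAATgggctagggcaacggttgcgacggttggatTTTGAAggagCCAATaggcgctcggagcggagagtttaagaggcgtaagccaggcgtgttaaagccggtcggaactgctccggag
MKI67: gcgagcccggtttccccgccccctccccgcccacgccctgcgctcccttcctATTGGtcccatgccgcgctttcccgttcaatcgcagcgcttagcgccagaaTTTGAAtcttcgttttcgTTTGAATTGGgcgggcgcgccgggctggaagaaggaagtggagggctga
In PLK1 the CHR began 29 bases and the CCAAT box 73 bases before the start of the gene, and in MKI67 a pair of CHR matches began 47 and 29 bases before it, the nearer of which overlaps a CCAAT match on the opposite strand. MCM6, a helicase subunit, and TYMS, the thymidylate synthase, are genes of DNA replication, and the capitals mark the E2F motifs TTTGGCGC or TTTCCCGC on either strand. MCM6 lies at chr2:135876424-135876613 on the minus strand and TYMS at chr18:657503-657672 on the plus strand.
MCM6: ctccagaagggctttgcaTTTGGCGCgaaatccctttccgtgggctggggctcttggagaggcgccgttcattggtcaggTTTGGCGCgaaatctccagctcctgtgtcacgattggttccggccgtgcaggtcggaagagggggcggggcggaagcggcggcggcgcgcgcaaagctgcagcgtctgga
TYMS: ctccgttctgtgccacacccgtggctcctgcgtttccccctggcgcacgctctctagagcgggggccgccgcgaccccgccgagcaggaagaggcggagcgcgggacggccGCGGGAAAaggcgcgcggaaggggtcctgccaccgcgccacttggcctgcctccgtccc
CISH is a STAT5-induced inhibitor of cytokine signalling at chr3:50611775-50612024 on the minus strand, and its capitals mark the STAT motif TTCNNNGAA, with 4 matches.
CISH: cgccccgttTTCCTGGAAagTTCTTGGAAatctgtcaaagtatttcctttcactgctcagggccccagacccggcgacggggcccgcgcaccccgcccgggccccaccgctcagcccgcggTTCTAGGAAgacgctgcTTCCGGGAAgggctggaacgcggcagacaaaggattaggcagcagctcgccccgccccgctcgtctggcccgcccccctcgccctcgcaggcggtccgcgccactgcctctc
CHAC1 degrades glutathione and is a target of the stress factor ATF4, at chr15:40953221-40953390 on the plus strand, and its capitals mark the C/EBP-ATF response element TGATGCAA, here on the opposite strand.
CHAC1: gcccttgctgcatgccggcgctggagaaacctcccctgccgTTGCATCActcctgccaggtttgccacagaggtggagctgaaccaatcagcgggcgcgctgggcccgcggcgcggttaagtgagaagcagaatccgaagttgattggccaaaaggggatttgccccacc
GAA is the lysosomal acid glucosidase at chr17:80101431-80101600 on the plus strand, and its capitals mark the E-box CACGTG, with matches 76 and 31 bases before the start.
GAA: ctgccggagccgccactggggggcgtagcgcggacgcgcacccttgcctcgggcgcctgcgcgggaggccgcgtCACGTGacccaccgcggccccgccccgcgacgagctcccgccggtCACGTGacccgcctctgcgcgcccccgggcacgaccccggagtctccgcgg

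The libraries held 58187065 to 60554247 counts in DMSO and 54924965 to 60737547 in SGI-7079. Treated and control libraries lay apart on the leading axis of a principal component analysis, with 54.0% of the variance, and no library was left out. More genes reached 10 counts in the treated libraries, 18923 to 19366 against 18096 to 18194. These libraries also had a larger share of counts in lncRNA genes, 2.1% to 2.22% against 1.48% to 1.54%, and a larger share in mitochondrial ribosomal RNA, 0.917% to 0.954% against 0.516% to 0.544%. FLT3, HOXA9, MEIS1 and ITGAM, all known in this line, were detected in every library, at levels given below, whereas the monocyte marker CD14 was near 0, at 0.107, 0.419 and 0.154 CPM in DMSO and 0.373, 0.286 and 0.0888 CPM in SGI-7079. CPM are counts scaled to library size after TMM normalization. Markers of other lineages were mostly at or near 0. Among the 7 erythroid and megakaryocyte markers listed in the file, the filter left 2, with a summed level of 3.04 to 4.30 CPM in DMSO and 6.25 to 7.28 CPM in SGI-7079; 1 rose and 1 fell. Of the T and NK cell markers 4 passed the filter, of which 1 rose and 3 fell. Their summed level was 19.6 to 21.7 CPM in DMSO and 20.8 to 21.4 CPM in SGI-7079, mostly from NKG7. That of stromal, endothelial and epithelial markers was 108 to 114 CPM in DMSO and 134 to 150 CPM in SGI-7079, with 3 tested, 2 of which rose, and mostly from PECAM1, which monocytic cells also express. HBB, CDH5 and EPCAM had 0 counts in all 6 libraries.

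SGI-7079 changed a large part of the transcriptome. Of 18763 genes tested, 4776 (25.5%) rose and 5187 (27.6%) fell at an adjusted p under 0.05. Which direction held more genes turned with the scaling: with none beyond the total count 5659 rose and 4299 fell. With an absolute log2 fold change over 1 as well, 1680 (8.95%) were called higher and 719 (3.83%) lower. The groups did not overlap, with all treated libraries above all controls, in 5821 genes (31.0%), and with all treated libraries below in 5817 (31.0%). The median log2 fold change of all genes tested was 0.039, and counts and medians of gene groups are read against these shares and this median. In bulk RNA, fewer cells of a type and less RNA per cell cannot be told apart, and without an added standard CPM show changes relative to the other genes of the library.

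**Figure D1:**
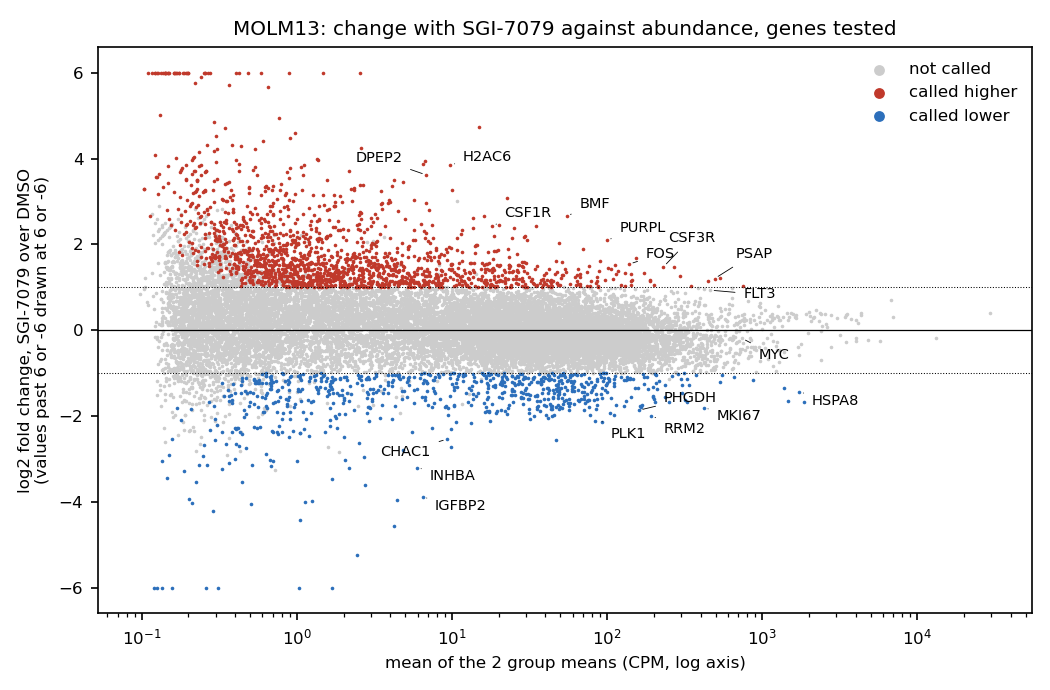
Log2 fold change of SGI-7079 over DMSO in MOLM13 against mean abundance in CPM on a log axis, 1 point a gene, with genes called higher in red and called lower in blue and dotted lines at 1 and -1. Red points lie mostly at low abundance, whereas at 100 CPM or more 27 genes were called higher and 68 lower.

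The calls differed with abundance and gene type. Below 1 CPM 688 of 4887 genes were called higher and 150 lower, and from 1 to 5 CPM 589 of 2919 were called higher and 152 lower. From 5 to 100 CPM the calls were nearly even, 376 higher and 349 lower of 8785. Among 2172 genes at 100 CPM or more, 27 were called higher and 68 lower, and 611 rose and 1280 fell. Of 3627 lncRNA genes tested, 601 were called higher and 48 lower, with a median log2 fold change of 0.46, whereas among 13176 protein-coding genes the calls were 888 higher and 621 lower and the median was -0.07. The larger number of detected genes and the larger lncRNA share of the treated libraries moved with these counts, and their part in them was not tested.

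**Figure D2:**
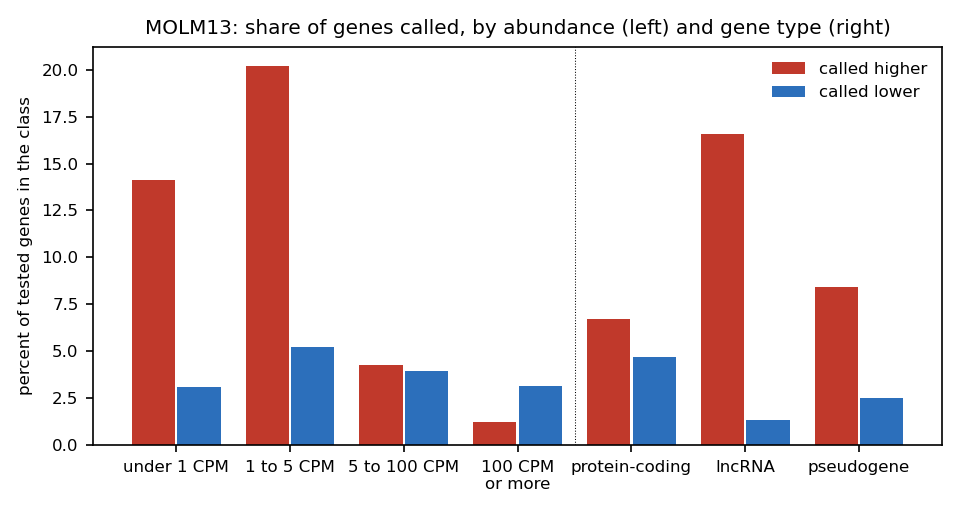
Percent of tested genes called higher (red) and lower (blue) with SGI-7079 in MOLM13, in 4 classes of mean abundance and 3 gene types. Calls higher reached 20.2% at 1 to 5 CPM and 16.6% among lncRNA genes, against 1.24% at 100 CPM or more, where 3.13% were called lower.

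The receptor named in the series title as inhibited by SGI-7079 rose. FLT3 was at 318, 316 and 315 CPM in the DMSO libraries and at 605, 606 and 603 CPM with SGI-7079, 1.91 times the control level (log2 fold change 0.93, SE 0.024, adjusted p = 4.47e-09). The replicates of each group were close to each other and the groups far apart. CSF1R and CSF3R rose as well. CSF1R, the receptor of macrophage colony-stimulating factor, went from 5.29, 6.18 and 5.48 CPM to 30.8, 29 and 32.1 CPM (log2 fold change 2.44, SE 0.090, adjusted p = 2.62e-08), and CSF3R, the granulocyte colony-stimulating factor receptor, from 124, 127 and 115 CPM to 326, 348 and 344 CPM (log2 fold change 1.48, SE 0.043, adjusted p = 7.45e-09). The groups did not overlap in either gene. On the per-length scale of the deposited FPKM, mean levels with SGI-7079 were 139 for FLT3, 30.7 for CSF3R and 5.68 for CSF1R, against 68.5, 10.4 and 0.983 with DMSO.

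The TAM receptors went different ways. AXL, the kinase SGI-7079 is known to inhibit, was at 9.04, 7.86 and 9.08 CPM in DMSO and rose to 26.3, 23.5 and 25.5 CPM (log2 fold change 1.54, SE 0.090, adjusted p = 4.87e-07). TYRO3 fell from 5.77, 4.92 and 5.54 CPM to 2.64, 2.13 and 2.24 CPM (log2 fold change -1.21, SE 0.17, adjusted p = 0.000177), and MERTK, at 0, 0.0873 and 0 CPM in DMSO and 0.153, 0.0793 and 0 CPM in SGI-7079, did not pass the filter. The treated libraries all lay above the controls for AXL and all below for TYRO3. GAS6, the ligand of these receptors, fell slightly from 245, 253 and 257 CPM to 214, 214 and 211 CPM (log2 fold change -0.24, SE 0.030, adjusted p = 8.33e-05). TFRC, the transferrin receptor that imports iron, fell from 479, 479 and 461 CPM to 271, 267 and 257 CPM (log2 fold change -0.84, SE 0.031, adjusted p = 2.92e-08). Of 22 receptors and ligands tested in this list, 10 rose and 5 fell, with a median of 0.29, against 25.5% and 27.6% of all genes.

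**Figure D3:**
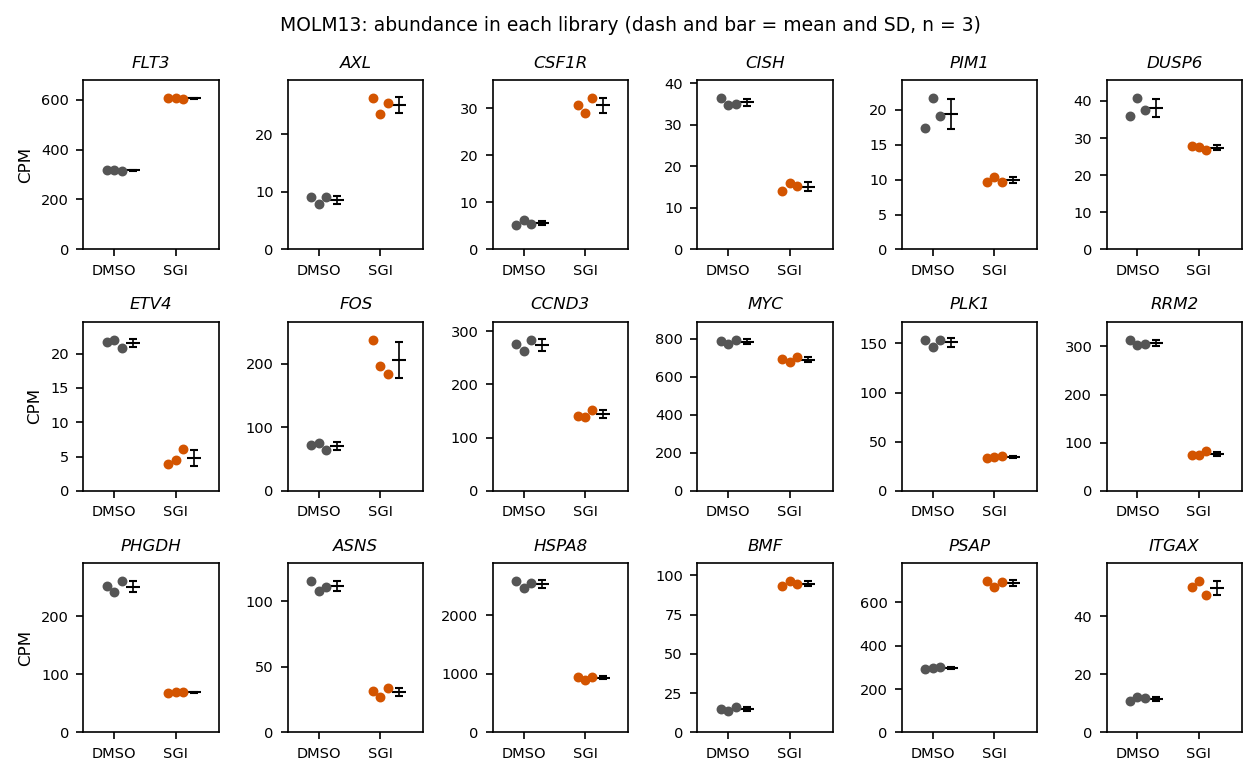
CPM of 18 genes in each of the 3 DMSO and 3 SGI-7079 libraries of MOLM13, 1 point a library, with the mean and SD beside them and every axis starting at 0. The groups do not overlap in any of the 18 genes; MYC shows the smallest fold, from 771 to 795 CPM down to 675 to 702 CPM.

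Genes downstream of STAT5 were mostly lower. Of 16 STAT5 targets tested 12 fell and 1 rose, with a median of -0.43. CISH, whose promoter with 4 STAT motifs is shown above, was at 36.4, 34.8 and 35.1 CPM in DMSO and 14, 16.1 and 15.2 CPM in SGI-7079 (log2 fold change -1.23, SE 0.069, adjusted p = 3.56e-07). PIM1, a serine/threonine kinase that promotes survival, fell from 17.4, 21.7 and 19.1 CPM to 9.63, 10.4 and 9.73 CPM (log2 fold change -0.97, SE 0.1, adjusted p = 2.6e-05), and the cytokine OSM from 3.48, 5.54 and 4.66 CPM to 1.76, 1.67 and 1.56 CPM (log2 fold change -1.45, SE 0.21, adjusted p = 0.000258). None of these 3 had overlapping groups. PIM2 and PIM3 fell by less, with log2 fold changes of -0.45 and -0.42, and SOCS2, a feedback inhibitor, by 0.10 from 174, 184 and 180.2 CPM to 167, 168 and 167 CPM. Leaving out any single library but control replicate 1 raised the adjusted p of SOCS2 past the threshold, to 0.0514 to 0.0719. Here and below, the call of a gene is lost where its adjusted p is no longer under 0.05, whatever its fold. SOCS3 had 3.23, 2.37 and 4.15 CPM in DMSO and 2.14, 2.57 and 1.9 CPM in SGI-7079 and did not pass the test (log2 fold change -0.56, SE 0.24, adjusted p = 0.0772), but did so without control replicate 2 (log2 fold change -0.75, adjusted p = 0.0262) and in the fit of all 12 libraries (adjusted p = 0.0377). DUSP1, a phosphatase of MAP kinases, was the member that rose (log2 fold change 0.95, SE 0.26, adjusted p = 0.0119).

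Among ERK feedback and target genes 14 of 23 fell and 3 rose, with a median of -0.46. ETV4, an ETS factor of the PEA3 group, showed the largest fall, from 21.6, 22 and 20.9 CPM to 3.9, 4.46 and 6.14 CPM (log2 fold change -2.16, SE 0.15, adjusted p = 1.83e-06), and its relative ETV5 went from 25.8, 31.2 and 27.4 CPM to 14.1, 14.9 and 13.8 CPM (log2 fold change -0.98, SE 0.085, adjusted p = 7.42e-06). SPRY4, an inhibitor of receptor signalling to RAS, fell from 8.77, 8.96 and 7.8 CPM to 3.54, 4 and 4.19 CPM (log2 fold change -1.12, SE 0.14, adjusted p = 7.22e-05). In all 3 genes every treated library lay below every control. DUSP6, the phosphatase of ERK, fell less, from 35.8, 40.7 and 37.7 CPM to 27.9, 27.6 and 26.8 CPM (log2 fold change -0.47, SE 0.061, adjusted p = 0.000114), and FOSL1 and IER3 fell by 0.91 and 0.85. The members that rose were immediate early or low genes. FOS went from 72.5, 76 and 64.1 CPM to 238, 196 and 184 CPM (log2 fold change 1.54, SE 0.094, adjusted p = 6.44e-07), FOSB had a log2 fold change of 1.03, and SPRED3 of 2.05 from under 1 CPM. The lowest treated library of FOS was above its highest control. EGR1, another immediate early gene, fell, with 58.8, 76.4 and 59.6 CPM in DMSO and 48.2, 48 and 30.1 CPM in SGI-7079 (log2 fold change -0.62, SE 0.17, adjusted p = 0.0108).

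FOXO targets moved mostly up. Of 25 tested 17 rose and 2 fell, with a median of 0.31. TXNIP, an arrestin-like inhibitor of glucose uptake, went from 79.1, 82.7 and 84.1 CPM to 192, 204 and 212 CPM (log2 fold change 1.31, SE 0.043, adjusted p = 1.41e-08). PIK3IP1, a membrane inhibitor of PI3K, went from 4.04, 3.68 and 4.16 CPM to 16, 15 and 14.7 CPM (log2 fold change 1.94, SE 0.11, adjusted p = 3.47e-07), and the transcriptional repressor BCL6 from 2.7, 2.55 and 2.51 CPM to 7.14, 7.69 and 6.78 CPM (log2 fold change 1.48, SE 0.14, adjusted p = 1.38e-05). The groups did not overlap in any of these 3. ARRDC3, a second arrestin-like gene, had a log2 fold change of 1.7 and the stress sensor SESN1 of 0.37. CDKN1B, the CDK inhibitor p27 and a known FOXO target, did not follow: it fell from 72.2, 79.2 and 76.7 CPM to 62.5, 66.1 and 63.5 CPM (log2 fold change -0.25, SE 0.044, adjusted p = 0.000979), and CITED2 fell by 0.23 on the log2 scale.

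MYC itself changed little. It was at 791, 771 and 795 CPM in DMSO and 693, 675 and 702 CPM in SGI-7079 (log2 fold change -0.19, SE 0.027, adjusted p = 0.000225), a change smaller than that of most STAT5 and ERK targets named here, although the groups did not overlap. Among its partners and antagonists, MXD4, a repressor that competes with MYC for MAX, rose from 38.5, 38.8 and 41.9 CPM to 83.7, 88.1 and 90.5 CPM (log2 fold change 1.14, SE 0.048, adjusted p = 5.78e-08), and MXD1 from 29.2, 26.5 and 29 CPM to 45.7, 43.8 and 44.4 CPM (log2 fold change 0.66, SE 0.055, adjusted p = 5.8e-06). MAX, at 32.3, 30.7 and 34 CPM in DMSO and 32.1, 26.4 and 26.6 CPM in SGI-7079, did not pass the test, but did so without treated replicate 1 (adjusted p = 0.00938) and in the fit of all 12 libraries (adjusted p = 0.0378). Of the 11 members of the network tested 5 rose and 3 fell, and the median was 0.03, close to that of all genes.

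Cell-cycle genes fell broadly. Of 17 G1 cyclins, CDKs and inhibitors tested 14 fell and 3 rose, with a median of -0.55. CCND3, the D cyclin with the highest deposited FPKM in DMSO (42.8, against 6.14 for CCND2 and 1.31 for CCND1), went from 276, 262 and 284 CPM to 140.3, 139 and 153 CPM (log2 fold change -0.93, SE 0.044, adjusted p = 1.25e-07). CCNE2, a cyclin of the G1 to S transition, went from 50.5, 44.9 and 51 CPM to 15.3, 12.5 and 13.4 CPM (log2 fold change -1.83, SE 0.086, adjusted p = 1.19e-07), and CDC25A, the phosphatase that activates CDKs, from 57.2, 54.8 and 56.6 CPM to 18.6, 17.3 and 17.8 CPM (log2 fold change -1.65, SE 0.052, adjusted p = 1.18e-08). No treated library reached the lowest control in these genes. CDK4 and CDK2 fell by 0.55 and 1.08, whereas CDK6 rose by 0.21. RBL2, the pocket protein p130 of quiescent cells, rose from 160.1, 159.8 and 158 CPM to 189.8, 198 and 185 CPM (log2 fold change 0.26, SE 0.033, adjusted p = 0.000103), and RBL1 (p107) fell by 1.16. The CDK inhibitors CDKN1A and CDKN2C fell by 0.37 and 0.15, and CDKN2A and CDKN2B had 0 counts in all 6 libraries. CDKN1C rose from at most 0.0853 CPM to 0.525, 0.444 and 0.213 CPM, a call that was lost without treated replicate 1 (adjusted p = 0.0831) or treated replicate 2 (adjusted p = 0.0671).

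E2F and MYB factors followed. Of 18 tested 14 fell and none rose, with a median of -0.65. E2F8, an atypical E2F of S phase, went from 79.5, 78.2 and 81.7 CPM to 13.9, 14.6 and 11.9 CPM (log2 fold change -2.57, SE 0.072, adjusted p = 6.51e-09). MYBL2 (B-MYB), which drives mitotic genes, went from 267, 247 and 259 CPM to 72.3, 76 and 76.5 CPM (log2 fold change -1.78, SE 0.039, adjusted p = 2.08e-09), and FOXM1, another mitotic factor, from 112, 113 and 118 CPM to 39, 33.5 and 38.4 CPM (log2 fold change -1.63, SE 0.057, adjusted p = 1.93e-08). The groups were fully separate in each. E2F1 and E2F2 fell by 0.99 and 1.28, MYB, a progenitor factor, by 0.48, and E2F5, TFDP2, LIN37 and LIN52 did not pass the test, with log2 fold changes of -0.18, 0.10, 0.10 and -0.13.

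Every one of the 45 DNA replication genes fell, 30 of them past the call threshold, with a median of -1.13 and a range from -2.00 to -0.49. Their summed level was 7313 to 7494 CPM in the DMSO libraries and 3339 to 3444 CPM with SGI-7079. RRM2, the regulated subunit of ribonucleotide reductase, went from 314, 303 and 306 CPM to 74.2, 74.7 and 81.9 CPM (log2 fold change -2.00, SE 0.042, adjusted p = 2.02e-09), and the catalytic subunit RRM1 from 318, 307 and 309 CPM to 100.1, 96.1 and 98.3 CPM (log2 fold change -1.67, SE 0.031, adjusted p = 1.69e-09). Both fell with no overlap. MCM4 of the replicative helicase had 751, 739 and 750.0 CPM in DMSO and 322, 317 and 336 CPM in SGI-7079 (log2 fold change -1.2, SE 0.030, adjusted p = 3.45e-09). The initiation factors MCM10 and CDC45 fell by 1.69 and 1.63.

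All 44 genes of mitosis and the spindle fell, 42 past the call threshold, with a median of -1.73 and a range from -2.14 to -0.60. Their summed level went from 5372 to 5420 CPM down to 1784 to 1832 CPM. PLK1, a kinase of mitotic entry and spindle assembly, was at 154, 146 and 153 CPM in DMSO and 33.3, 34.5 and 35.6 CPM in SGI-7079 (log2 fold change -2.13, SE 0.038, adjusted p = 1.69e-09). CDC20, the activator of the anaphase-promoting complex, went from 134, 135 and 141 CPM to 33.7, 27.8 and 33.6 CPM (log2 fold change -2.11, SE 0.068, adjusted p = 1.31e-08), and cyclin B1, CCNB1, from 126, 122 and 124 CPM to 30.7, 32.6 and 30.6 CPM (log2 fold change -1.99, SE 0.038, adjusted p = 1.69e-09). The control mean was 4.38 times the treated mean for PLK1, 4.3 times for CDC20 and 3.96 times for CCNB1. MKI67, the proliferation antigen Ki-67, went from 659, 649 and 656 CPM to 178, 193 and 189 CPM (log2 fold change -1.81, SE 0.034, adjusted p = 1.69e-09), and CDK1 and TPX2 fell by 1.75 and 1.65. SPC24 of the kinetochore was uneven among the controls, with 34.6, 16.4 and 34.4 CPM, and the treated libraries at 4.49, 5.6 and 9.61 CPM were still below the lowest of them (log2 fold change -2.12, SE 0.33, adjusted p = 0.000396).

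**Figure D4:**
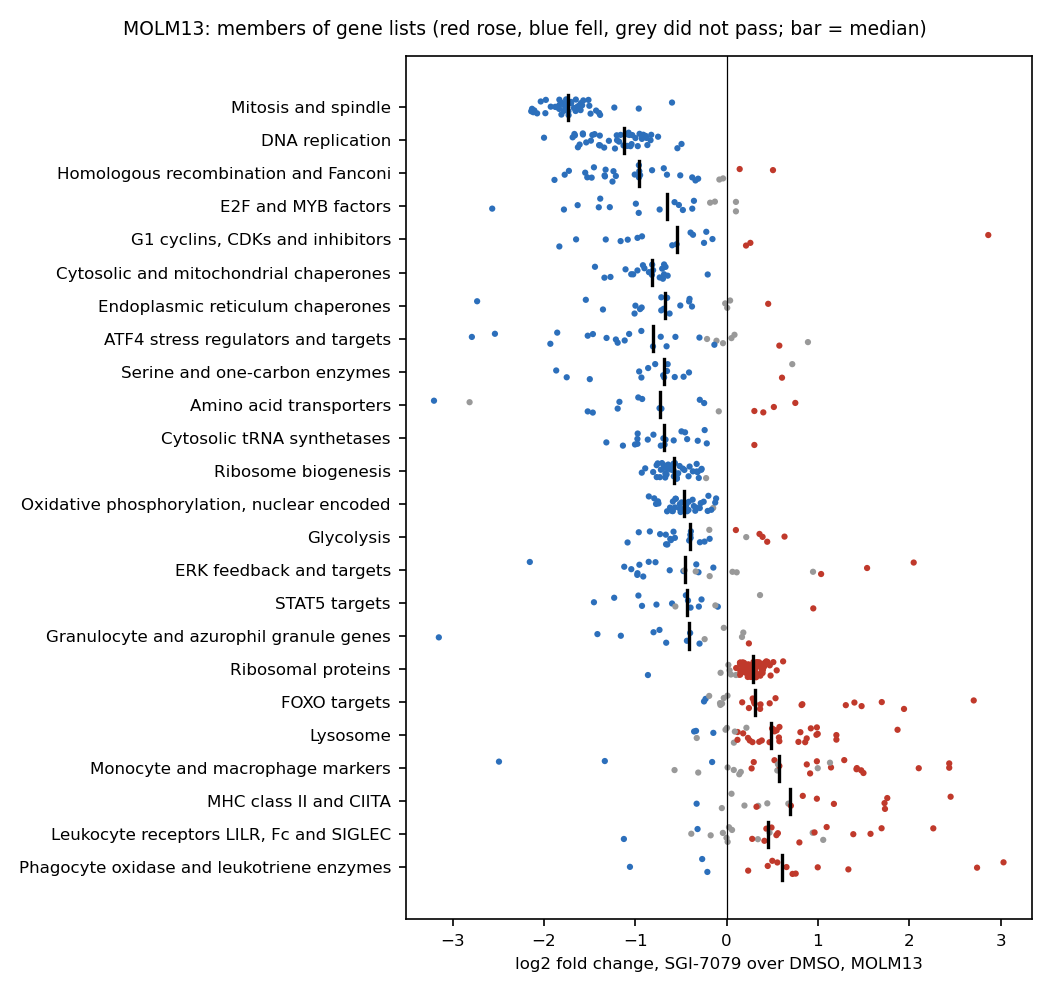
Log2 fold change of each tested member of 24 gene lists in MOLM13, SGI-7079 over DMSO, 1 point a gene, red where it rose, blue where it fell, grey where it did not pass, with the median as a black bar. Mitosis and replication genes lie wholly below 0, at medians of -1.73 and -1.13, and lysosome, monocyte and MHC class II genes mostly above it, at 0.48, 0.58 and 0.69.

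Repair genes that work at replication forks went with them. Of 29 homologous recombination and Fanconi genes tested 25 fell and 2 rose, with a median of -0.96. EXO1, a nuclease, went from 97.8, 92.4 and 90.6 CPM to 27.5, 29 and 28.4 CPM (log2 fold change -1.73, SE 0.045, adjusted p = 4.47e-09), and FANCI from 207, 219 and 210.4 CPM to 73.3, 68.7 and 75.3 CPM (log2 fold change -1.55, SE 0.041, adjusted p = 4.88e-09). CHEK1, the S-phase checkpoint kinase, fell by 1.34. The members that rose were the damage kinase ATM, from 115, 119 and 118 CPM to 161, 172 and 167 CPM (log2 fold change 0.51, SE 0.034, adjusted p = 1.14e-06), and RAD50, by 0.14, a call lost without control replicate 2 (adjusted p = 0.0519).

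Promoter motifs were held by different shares of these groups. Both strands of the RefSeq promoter, 250 bases before to 50 after the start, were searched for exact matches in 10550 protein-coding genes tested. Only 1 promoter was searched per gene. Genes without a promoter sequence were left out, so that fewer members were searched than tested in each list. The motifs were not tested for overlap with each other. TTTGAA was found in 26 of 38 mitosis promoters (68.4%) and in 1 of 37 replication promoters (2.70%), against 10.2% of all tested promoters and 15.4% of 27305 RefSeq promoters. TTTCCCGC was found in 10 of 37 replication promoters (27.0%) and in 1 of 38 mitosis promoters (2.63%), against 2.67% of all tested, and TTTGGCGC in 6 (16.2%) and in 0, against 1.11%. Either E2F motif was held by 16 of 37 replication promoters (43.2%). CCAAT, short enough to be common, was found in 76.3% of mitosis, 59.5% of replication and 36.7% of all tested promoters. Genes called lower held TTTGAA in 24.3% of 481 promoters and genes called higher in 11.8% of 642; among all genes that fell the share was 10.7%, close to that of all tested promoters. TTCNNNGAA was found in 6.65% of promoters of genes called lower, 7.48% of genes called higher and 6.42% of all tested. TGTTTAC, a FOXO motif, was found in 4.52% of genes called higher, 2.08% of genes called lower and 2.38% of all tested. A match is a description of the letters and not evidence that a factor binds there.

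**Figure D5:**
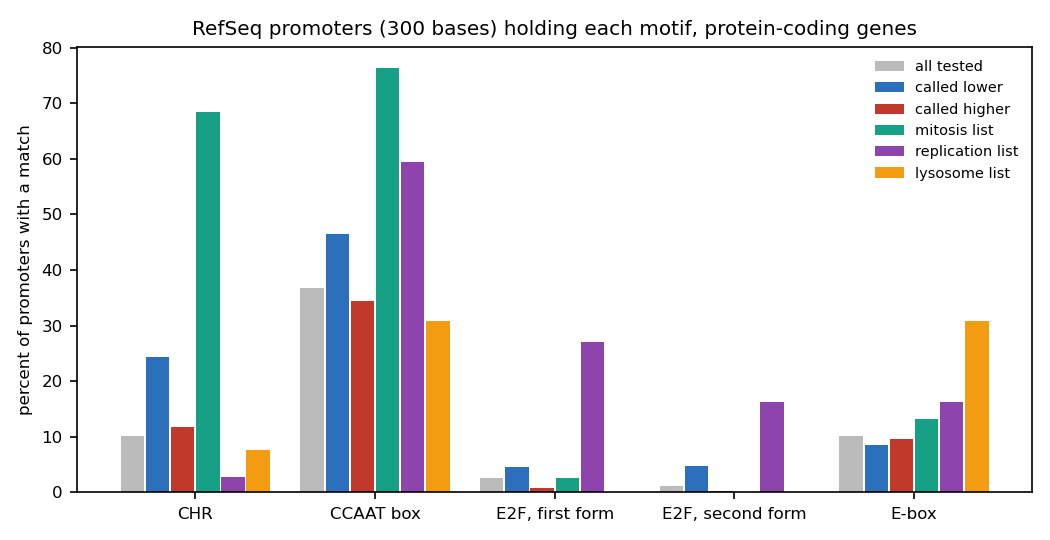
Percent of promoters holding the CHR motif, the CCAAT box, the 2 E2F motifs (TTTCCCGC first, TTTGGCGC second) and the E-box, among all tested genes, genes called lower or higher, and 3 gene lists. The CHR stands at 68.4% in the mitosis list and 2.70% in the replication list, and the E-box at 30.8% in the lysosome list against 10.2% of all tested.

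Replication-dependent histone genes went against the other S-phase genes. Their mRNA ends in a stem-loop and not in a poly(A) tail, so that libraries selected on oligo(dT), as here, hold mainly tailed forms. The summed level of the 26 genes in the table was 10.4 to 12.5 CPM in DMSO and 71.1 to 73.6 CPM in SGI-7079. H2BC12 went from 4.68, 3.72 and 4.88 CPM to 26.5, 28.5 and 28.8 CPM (log2 fold change 2.66, SE 0.11, adjusted p = 6.14e-08) and H2AC6 from 1.16, 0.908 and 1.71 CPM to 19.5, 17.7 and 17.7 CPM (log2 fold change 3.86, SE 0.20, adjusted p = 2.49e-07). These 2 genes made up most of the treated sum. H1-2, a linker histone, rose from under 1 CPM to 4.42, 4.16 and 4.56 CPM (log2 fold change 2.69, SE 0.25, adjusted p = 1.03e-05). Of the 26 genes 13 passed the filter on low counts, which a gene could do through the treated group alone; 11 of them rose and none fell. Histone genes are near-identical copies of each other, and the sources used here do not say how reads matching several genes were counted, so that the level of a single copy is uncertain.

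Genes for making ribosomes and those for the ribosome's own proteins went opposite ways. Of 40 ribosome biogenesis genes 39 fell and none rose, with a median of -0.58. NCL (nucleolin) went from 1626, 1553 and 1586 CPM to 957, 941 and 974 CPM (log2 fold change -0.73, SE 0.026, adjusted p = 2.32e-08), and DDX21, a nucleolar helicase, from 869, 880.4 and 875 CPM to 525, 508 and 510.0 CPM (log2 fold change -0.77, SE 0.025, adjusted p = 1.41e-08). Of 78 cytosolic ribosomal protein genes 72 rose and 1 fell, with a median of 0.28. Their summed level went from 81277 to 85788 CPM in DMSO to 99083 to 103644 CPM in SGI-7079. RPL13 went from 1882, 1772 and 1882 CPM to 2577, 2519.5 and 2635 CPM (log2 fold change 0.48, SE 0.030, adjusted p = 6.64e-07), and RPL37 from 511, 464 and 470.4 CPM to 757, 738 and 725 CPM (log2 fold change 0.62, SE 0.039, adjusted p = 7.48e-07), while RPS26 was the member that fell, from 158, 171 and 180.0 CPM to 97.7, 92.5 and 89.9 CPM (log2 fold change -0.86, SE 0.050, adjusted p = 4.77e-07). Ribosomal protein genes have many processed pseudogenes, so that single values depend on how shared reads were counted.

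Amino acid supply genes fell together. ATF4, which drives the response to amino acid shortage, went from 482, 471 and 484 CPM to 272, 268 and 282 CPM (log2 fold change -0.81, SE 0.030, adjusted p = 2.54e-08). Of 25 tested ATF4 regulators and targets 18 fell and 1 rose, with a median of -0.81. CHAC1, shown above with its response element, went from 15.8, 15 and 16.8 CPM to 2.98, 3.19 and 2.02 CPM (log2 fold change -2.54, SE 0.17, adjusted p = 1.16e-06), and ASNS, the asparagine synthetase, from 115, 108 and 111 CPM to 31.4, 27.3 and 33.7 CPM (log2 fold change -1.86, SE 0.070, adjusted p = 2.93e-08). ADM2, a secreted peptide, went from 8.82, 8.14 and 8.45 CPM to 0.661, 1.62 and 1.38 CPM (log2 fold change -2.79, SE 0.28, adjusted p = 2.16e-05). The groups were separate in all 4 genes. PPP1R15A, a phosphatase subunit that restores translation, was the member that rose (log2 fold change 0.58, SE 0.054, adjusted p = 1.29e-05). TGATGCAA was found in 2 of the 22 promoters searched for this list (9.09%), that of CHAC1 among them. It was found in 0.521% of all tested, 0.624% of genes called lower and 0.623% of genes called higher.

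The serine pathway showed the same direction. Of 16 serine and one-carbon genes tested 14 fell and 1 rose, with a median of -0.69. PHGDH, the first enzyme of serine synthesis, went from 251, 242 and 260.3 CPM to 67.3, 70.1 and 69.1 CPM (log2 fold change -1.87, SE 0.037, adjusted p = 1.69e-09), and PSAT1, the next enzyme, from 271, 248 and 259 CPM to 78.9, 74.4 and 77.7 CPM (log2 fold change -1.75, SE 0.041, adjusted p = 2.43e-09). The last enzyme, PSPH, fell less, from 42.6, 40.8 and 39.5 CPM to 27.6, 25.4 and 25.6 CPM (log2 fold change -0.65, SE 0.058, adjusted p = 8.9e-06). Among the mitochondrial one-carbon enzymes SHMT2, MTHFD2 and ALDH1L2 fell by 0.96, 0.86 and 1.5, and MTHFD2L rose by 0.61 from a low level. AMT was uneven in DMSO, at 3.77, 0.629 and 0.444 CPM against 2.53, 3.16 and 2.27 CPM in SGI-7079, and did not pass the test; without control replicate 1 it did (log2 fold change 2.3, adjusted p = 0.000303).

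Of 17 amino acid transporters tested 11 fell and 4 rose, with a median of -0.73. SLC7A5, the large neutral amino acid exchanger, went from 471, 421 and 439 CPM to 154, 157 and 171 CPM (log2 fold change -1.47, SE 0.050, adjusted p = 1.82e-08), and its partner SLC3A2 from 225, 212 and 210.1 CPM to 112, 111 and 117 CPM (log2 fold change -0.92, SE 0.037, adjusted p = 4.58e-08). The glutamine carriers SLC1A5 and SLC38A1 fell by 1.17 and 1.19, and the glycine carrier SLC6A9 from 3.8, 3.96 and 3.94 CPM to 0.356, 0.412 and 0.497 CPM (log2 fold change -3.2, SE 0.22, adjusted p = 1.41e-06). The members that rose included the lysosomal peptide carriers SLC15A3 and SLC15A4, by 0.75 and 0.40. Of 20 cytosolic tRNA synthetases 19 fell and 1 rose, with a median of -0.69. GARS1, which charges glycine, went from 287, 280.4 and 281 CPM to 111, 114 and 115 CPM (log2 fold change -1.32, SE 0.030, adjusted p = 2.33e-09), and MARS1, which charges methionine, fell by 1.14, whereas QARS1, for glutamine, rose from 347, 330.1 and 352 CPM to 420.1, 416 and 434 CPM (log2 fold change 0.30, SE 0.033, adjusted p = 3.35e-05). Of 18 purine and pyrimidine synthesis genes 14 fell and 1 rose, with a median of -0.47; PAICS of purine synthesis went from 493, 487 and 480.3 CPM to 278, 279 and 288 CPM (log2 fold change -0.79, SE 0.028, adjusted p = 1.96e-08).

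Genes of energy metabolism were mostly lower as well. Of 25 glycolytic genes tested 18 fell and 5 rose, with a median of -0.40. LDHA, lactate dehydrogenase, went from 911, 866 and 902 CPM to 431, 397 and 435 CPM (log2 fold change -1.08, SE 0.039, adjusted p = 2.32e-08), and PKM, pyruvate kinase, from 1219, 1179.6 and 1219 CPM to 734, 698 and 752 CPM (log2 fold change -0.73, SE 0.032, adjusted p = 7.64e-08). PFKFB3, a regulator of glycolytic flux, rose by 0.36. Of 36 nuclear genes of oxidative phosphorylation 35 fell and none rose, with a median of -0.47, and SDHB of complex II went from 108, 104 and 105 CPM to 69.3, 66 and 66.4 CPM (log2 fold change -0.65, SE 0.034, adjusted p = 2.4e-07). Of the 13 mRNAs encoded by the mitochondrial genome 8 fell and 4 rose, with a median of -0.17 and a range from -0.31 to 0.29, while the share of mitochondrial ribosomal RNA was higher in the treated libraries. Of 32 cholesterol and fatty acid synthesis genes tested 15 fell and 6 rose, with a median of -0.12; with no scaling beyond the total count 11 rose and the median was -0.03. SCD, the stearoyl desaturase, fell from 633, 614 and 628 CPM to 343, 328 and 347 CPM (log2 fold change -0.88, SE 0.030, adjusted p = 1.79e-08), whereas SREBF2, the regulator of sterol genes, rose from 245, 246 and 252 CPM to 348, 339 and 356 CPM (log2 fold change 0.49, SE 0.030, adjusted p = 6.34e-07).

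Chaperones were lower. All 21 cytosolic and mitochondrial chaperones fell, 6 past the call threshold, with a median of -0.82 and a summed level of 15927 to 16299 CPM in DMSO and 8333 to 8593 CPM in SGI-7079. HSPA8, the constitutive HSP70, went from 2584, 2462 and 2551 CPM to 942, 901 and 954 CPM (log2 fold change -1.44, SE 0.030, adjusted p = 1.72e-09), and HSP90AA1 from 1959.9, 1956 and 1989 CPM to 791, 784 and 761 CPM (log2 fold change -1.34, SE 0.024, adjusted p = 1.69e-09). No treated library came near the lowest control in either gene. Of 20 endoplasmic reticulum genes 16 fell and 1 rose, with a median of -0.67. XBP1, a factor of the unfolded protein response, went from 299, 292 and 288 CPM to 102, 95.8 and 104 CPM (log2 fold change -1.54, SE 0.037, adjusted p = 2.81e-09), and HSPA5 (BiP) from 519, 514 and 519 CPM to 275, 272 and 268 CPM (log2 fold change -0.93, SE 0.026, adjusted p = 5.94e-09). CKAP4, a membrane protein of the same compartment, had the largest fall of this list, from 17.7, 14.3 and 19.7 CPM to 2.36, 2.47 and 2.95 CPM (log2 fold change -2.73, SE 0.15, adjusted p = 3.58e-07). ERN1, the sensor IRE1, was the member that rose (log2 fold change 0.46, SE 0.081, adjusted p = 0.000958).

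Monocyte and macrophage genes were mostly higher and granule genes lower. Of 35 monocyte and macrophage markers 29 passed the filter, and 16 rose and 3 fell, 9 and 2 of them past the call threshold, with a median of 0.58. The summed level of all 35 went from 1389 to 1430 CPM in DMSO to 1995 to 2076 CPM in SGI-7079. ITGAX (CD11c), an integrin of macrophages and dendritic cells, went from 10.7, 12.1 and 11.9 CPM to 49.9, 52.1 and 47.2 CPM (log2 fold change 2.1, SE 0.069, adjusted p = 1.43e-08), and ITGAM (CD11b) from 13.2, 14.4 and 11.6 CPM to 28.8, 28.8 and 28.9 CPM (log2 fold change 1.14, SE 0.086, adjusted p = 2.68e-06). TYROBP, the signalling adaptor DAP12, went from 22.1, 23.1 and 22.9 CPM to 56.4, 54.7 and 55.4 CPM (log2 fold change 1.29, SE 0.047, adjusted p = 2.48e-08). All treated libraries lay above all controls in the 3. CD68 was less even, with 39.6, 39.6 and 41.1 CPM in DMSO and 128, 85.9 and 126 CPM in SGI-7079 (log2 fold change 1.5, SE 0.13, adjusted p = 7.08e-06). LYZ, lysozyme, fell from 449, 428 and 444 CPM to 403, 387 and 395 CPM (log2 fold change -0.16, SE 0.030, adjusted p = 0.00133), and TREM1 and VCAN, both of monocytes, fell from levels under 3 CPM, with log2 fold changes of -2.49 and -1.33. CD14 did not pass the test.

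Among the 20 granulocyte and azurophil granule genes in the file, the filter left 14, and 9 fell and 1 rose, with a median of -0.42. MPO, myeloperoxidase, went from 32.1, 36.2 and 40.8 CPM to 11.8, 13.3 and 15.7 CPM (log2 fold change -1.41, SE 0.12, adjusted p = 5.27e-06), and the protease PRTN3 from 1354, 1283 and 1363 CPM to 829, 825 and 874 CPM (log2 fold change -0.66, SE 0.033, adjusted p = 1.76e-07). RNASE2 fell by 0.74 and AZU1 by 0.43. RNASE3 rose by 0.24, a call that did not hold when any single library was left out (adjusted p from 0.0543 to 0.116). RNASE2 and RNASE3 are closely related in sequence, so that reads may be shared.

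The progenitor and leukaemia genes were split. Of 21 tested 10 rose and 6 fell, with a median of 0.19. MEIS1, a cofactor of HOXA9 in KMT2A-rearranged leukaemia, rose from 39.8, 41.4 and 38.4 CPM to 54.8, 59 and 53.8 CPM (log2 fold change 0.49, SE 0.052, adjusted p = 3.04e-05), and HOXA9 from 74.4, 71 and 75.7 CPM to 90.3, 81.5 and 79.9 CPM (log2 fold change 0.19, SE 0.051, adjusted p = 0.0112). KMT2A fell by 0.18, a call that was lost with no scaling beyond the total count (-0.095, adjusted p = 0.146) and on FPKM (-0.088 and -0.063, adjusted p = 0.428 and 0.425). MLLT3, its partner in the fusion, did not pass the test. It was at 13.1, 14.2 and 14.4 CPM in DMSO and 13.2, 13 and 10.0 CPM in SGI-7079. Counts per gene do not separate reads of the fusion from those of either normal gene. RUNX2 rose from 70.6, 69.2 and 73.5 CPM to 139, 143 and 139.5 CPM (log2 fold change 0.98, SE 0.034, adjusted p = 1.82e-08), and GATA2, a factor of stem and mast cells, fell from 18.1, 17.5 and 19.6 CPM to 8.22, 6.28 and 7.31 CPM (log2 fold change -1.34, SE 0.11, adjusted p = 6.62e-06). Of 27 myeloid lineage factors 8 rose and 6 fell, with a median of 0.05, which are shares near those of all genes; IRF5 and TFEB rose by 0.78 and 0.79, and BATF3 fell by 1.8.

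Genes of antigen presentation by MHC class II were mostly higher. Of 16 MHC class II genes tested 9 rose and 1 fell, with a median of 0.69. CD74, the invariant chain, went from 173, 177 and 188 CPM to 289, 293 and 295 CPM (log2 fold change 0.70, SE 0.036, adjusted p = 2.07e-07), CIITA, the class II activator, from 10.0, 11.9 and 10.5 CPM to 18.5, 21.1 and 18.3 CPM (log2 fold change 0.83, SE 0.10, adjusted p = 6.84e-05), and HLA-DMA from 3.86, 3.79 and 3.84 CPM to 11.5, 13.5 and 13.2 CPM (log2 fold change 1.73, SE 0.12, adjusted p = 1.36e-06). The groups did not overlap in these genes. HLA-DRA rose from a low level, 6.5, 4.16 and 5.68 CPM in DMSO, to 12.7, 11.7 and 12.5 CPM in SGI-7079 (log2 fold change 1.18, SE 0.16, adjusted p = 0.00017). Of 18 class I and peptide loading genes 9 rose and 5 fell, with a median of 0.13; HLA-E rose by 0.79 and B2M by 0.30, whereas the transporter TAP2 fell by 0.39. HLA genes vary between people and resemble each other, and reads that differ from the reference may be lost or shared.

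Of 26 leukocyte receptors of the LILR, Fc and SIGLEC families tested 13 rose and 2 fell, with a median of 0.45. LILRB4, an inhibitory receptor of monocytes, went from 49.7, 49.9 and 47.7 CPM to 126, 125 and 135 CPM (log2 fold change 1.39, SE 0.040, adjusted p = 7.02e-09), and LAIR1, an inhibitory collagen receptor, from 209, 210.0 and 214 CPM to 301, 308 and 315 CPM (log2 fold change 0.55, SE 0.029, adjusted p = 2.82e-07). FCGR2B and FCGR2C, near-identical copies whose reads may be shared, rose by 1.58 and 2.26. Of 14 phagocyte oxidase and leukotriene genes 11 rose and 3 fell, with a median of 0.61. CYBB, the catalytic subunit of the oxidase, went from 11.8, 11.4 and 9.69 CPM to 23.2, 21.3 and 21.1 CPM (log2 fold change 1.00, SE 0.096, adjusted p = 1.45e-05), while its partner CYBA fell by 0.21. PTGDS, a prostaglandin D synthase, went from 1.36, 1.17 and 1.16 CPM to 11.2, 9.58 and 9.46 CPM (log2 fold change 3.03, SE 0.15, adjusted p = 1.92e-07), and the inducible cyclooxygenase PTGS2 fell from 3.84, 4.98 and 4.33 CPM to 1.76, 2.38 and 2.17 CPM (log2 fold change -1.06, SE 0.19, adjusted p = 0.00111). Among B-cell adaptors and SRC family kinases 5 of 17 rose and 4 fell, with a median of 0.02. BLNK, an adaptor of the B-cell receptor, went from 0.393, 0.925 and 0.836 CPM to 8.66, 6.65 and 7.01 CPM (log2 fold change 3.37, SE 0.29, adjusted p = 7.56e-06).

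Lysosomal genes rose broadly. Of 36 tested 27 rose and 3 fell (29 and 1 with no scaling beyond the total count), with a median of 0.48, and the summed level went from 3157 to 3207 CPM in DMSO to 4690 to 4783 CPM in SGI-7079. PSAP, the precursor of the saposins, went from 294, 298 and 304 CPM to 697, 672 and 693 CPM (log2 fold change 1.2, SE 0.028, adjusted p = 2.43e-09), the peptidase TPP1 from 219.9, 229 and 222 CPM to 417, 408 and 406 CPM (log2 fold change 0.88, SE 0.029, adjusted p = 1.35e-08), and GRN, progranulin, from 264, 253 and 263 CPM to 502, 508 and 532 CPM (log2 fold change 0.98, SE 0.033, adjusted p = 1.46e-08). No library overlapped. GAA, named for its promoter shown above after its values were seen, went from 37.6, 34.6 and 34.1 CPM to 69.1, 73 and 70.1 CPM (log2 fold change 1.00, SE 0.050, adjusted p = 1.76e-07). GUSB, PPT1 and MCOLN1 fell, by 0.36, 0.15 and 0.33; the call of MCOLN1 was lost without control replicate 3 or treated replicate 1 or 2 (adjusted p from 0.0593 to 0.0654). The E-box CACGTG was found in 8 of the 26 promoters searched for this list (30.8%). It was found in 10.2% of all tested, 9.66% of genes called higher and 8.52% of genes called lower.

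Among cell death genes 1 stood apart. BMF, a BH3-only protein that opposes BCL2, went from 15, 13.7 and 16.3 CPM to 93.3, 96.4 and 94.5 CPM (log2 fold change 2.66, SE 0.062, adjusted p = 2.43e-09), 6.32 times the control level. BBC3 (PUMA) rose from 14.6, 13.5 and 14 CPM to 20.4, 20.6 and 20.1 CPM (log2 fold change 0.54, SE 0.073, adjusted p = 0.000163), and PMAIP1 (NOXA) fell from 27.2, 24 and 20.9 CPM to 15.9, 17.4 and 15.7 CPM (log2 fold change -0.55, SE 0.1, adjusted p = 0.00116). The survival genes MCL1 and BCL2L1 fell by 0.27 and 0.30; that of BCL2L1 was lost without control replicate 1 or 3 or treated replicate 3 (adjusted p from 0.0607 to 0.0733). BCL2, at 131, 144 and 138 CPM in DMSO and 140.1, 138 and 143 CPM in SGI-7079, did not pass the test, but did so without scaling beyond the total count (adjusted p = 0.0382). In all, 2 of 16 BCL2 family genes rose and 6 fell, with a median of -0.07; without scaling beyond the total count 4 rose, 3 fell and the median was 0.02.

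Of 27 p53 targets tested 15 rose and 5 fell, with a median of 0.23. TP53INP1 went from 7.93, 8.03 and 9.14 CPM to 31.4, 29.9 and 29.1 CPM (log2 fold change 1.85, SE 0.083, adjusted p = 8.88e-08), and BTG2, an antiproliferative gene, rose by 0.76, whereas CDKN1A, the best known p53 target, fell by 0.37 and SESN2 by 0.56. Interferon-stimulated genes rose in 13 and fell in 4 of 34, with a median of 0.28. STAT2 went from 58.4, 62.1 and 57.3 CPM to 131, 142 and 129.5 CPM (log2 fold change 1.18, SE 0.046, adjusted p = 3.61e-08), and the chemokine CXCL10 fell from 76.5, 74.6 and 80.1 CPM to 32.3, 32.2 and 27.7 CPM (log2 fold change -1.33, SE 0.063, adjusted p = 1.25e-07). NF-kappaB factors and outputs were split, with 10 rising and 8 falling of 23 and a median of -0.09: NFKB2 rose by 0.40, and the cytokine TNF fell from 251, 242 and 239.6 CPM to 92.7, 108 and 108 CPM (log2 fold change -1.25, SE 0.056, adjusted p = 9.22e-08). In the insulin-like growth factor and activin list 7 of 18 rose and 5 fell, with a median of 0.09, and the 2 genes named next are among those that fell. IGFBP2, which binds and limits IGF ligands, went from 11.8, 12.1 and 12.4 CPM to 0.898, 0.952 and 0.586 CPM (log2 fold change -3.89, SE 0.19, adjusted p = 1.53e-07), and INHBA, the activin A subunit, from 10.8, 11.3 and 10.0 CPM to 0.831, 1.21 and 1.46 CPM (log2 fold change -3.2, SE 0.20, adjusted p = 8.72e-07). Among 25 chromatin and DNA methylation genes 14 fell and 5 rose, with a median of -0.26 (13 and 8 with no scaling beyond the total count). DNMT1, the maintenance methyltransferase, went from 644, 654 and 647 CPM to 341, 354 and 347 CPM (log2 fold change -0.90, SE 0.026, adjusted p = 7.7e-09), EZH2 fell by 0.92, and its relative EZH1 rose by 1.09.

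Several of the largest rises were in genes of low abundance in DMSO. Besides H2AC6, PTGDS and BLNK, the dipeptidase DPEP2 went from 1.09, 1.15 and 0.836 CPM to 12.4, 12.3 and 13.1 CPM (log2 fold change 3.62, SE 0.16, adjusted p = 7.64e-08), and the metalloprotease ADAM28 from 1.45, 1.96 and 2.18 CPM to 17.5, 19.7 and 16.9 CPM (log2 fold change 3.27, SE 0.16, adjusted p = 1.55e-07). ADCY4, an adenylate cyclase, went from 1.34, 1.78 and 1.5 CPM to 11.5, 12.9 and 11.8 CPM (log2 fold change 2.97, SE 0.15, adjusted p = 1.89e-07). The groups were clearly apart in these 3. CFAP70, LSP1, COL24A1, GCAWKR, ADAM11, C1orf127 and YPEL3 also rose, with log2 fold changes from 2.71 to 3.02. TRIM73 and TNXB, with 3.51 and 3.46, resemble copies elsewhere in the genome closely, which leaves their values uncertain. Among genes that reached 100 CPM, the lncRNA PURPL, known as a p53-induced transcript, rose from 38.4, 38.6 and 36.2 CPM to 156, 179 and 150.1 CPM (log2 fold change 2.1, SE 0.065, adjusted p = 9.91e-09), and FUCA1, a lysosomal fucosidase, from 30.0, 29.5 and 29.1 CPM to 108, 109 and 114 CPM (log2 fold change 1.9, SE 0.039, adjusted p = 1.72e-09). The lipid transporter ABCA7 went from 42.6, 45.7 and 44.4 CPM to 133, 141 and 129.7 CPM (log2 fold change 1.6, SE 0.043, adjusted p = 5.25e-09). MYO15B, P2RX1, SEC31B, CCDC88B and PLD4 rose as well, by 1.37 to 1.69 on the log2 scale.

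Among the largest falls outside the lists, STON1, an endocytic adaptor, went from 8.97, 6.6 and 9.45 CPM to 0.356, 0.539 and 0.71 CPM (log2 fold change -3.96, SE 0.27, adjusted p = 1.28e-06), and TNFRSF19, a receptor of the TNF family, from 5.38, 5.43 and 4.38 CPM to 0.559, 0.317 and 0.355 CPM (log2 fold change -3.62, SE 0.26, adjusted p = 2.01e-06). STON1 overlaps the read-through gene STON1-GTF2A1L, which had 352 counts over the DMSO libraries and 0 over the treated ones, so that reads of the pair may be shared. TUBA8 and the homeobox gene UNCX fell by 2.38 and 2.27. Of the genes tested, 40 had 0 counts in all DMSO libraries and a mean of at most 5.11 CPM in SGI-7079. Another 7 had 0 counts in all treated libraries and a mean of at most 2.05 CPM in DMSO. These genes passed the filter through the other group alone, so that their direction was fixed by how they were picked. Against a floor of 3 counts over the group, FOXA2, with 89 counts over the DMSO libraries, was at least 30.8-fold lower and PVRIG, with 154 counts over the treated libraries, at least 49.5-fold higher; both were chosen after their values were seen.

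The same contrast in MV411 served to show where MOLM13 differed. In a model of all 12 libraries the effect of SGI-7079 differed between the lines in 4428 of 21438 genes, being more positive in MOLM13 in 2530 (11.8%) and more negative in 1898 (8.85%). These counts changed with the set of libraries in the model. Leaving out any MOLM13 library, or MV411 control replicate 1 or 2 or treated replicate 1, gave 3098 to 3293 and 1200 to 1305. The median difference of all genes moved in those fits too, from 0.014 in the full model to 0.086 to 0.103. Without any of the remaining MV411 libraries it was 0.006 to 0.021. The cause of this shift was not tested. FLT3 rose more in MOLM13, 0.93 against 0.36 in MV411 (difference 0.57, SE 0.033, adjusted p = 1.27e-07). AXL rose in both and less in MOLM13, 1.54 against 2.19 (difference -0.65, SE 0.13, adjusted p = 0.00315). PIM1 fell less in MOLM13, -0.96 against -2.49 (difference 1.52, SE 0.11, adjusted p = 8.21e-07), and so did DUSP6, -0.47 against -1.47 (difference 1.00, SE 0.11, adjusted p = 3.45e-05), and MYC, -0.19 against -0.77 (difference 0.58, SE 0.043, adjusted p = 9.77e-07). These 3 genes thus changed by less in MOLM13 than in MV411 in the same model. SPRY4, another ERK target, did not pass, with -1.12 against -1.50 (difference 0.38, SE 0.28, adjusted p = 0.402). Control levels also differed between the lines. PIM1 was at 17.9 to 22.5 CPM in MOLM13 controls and 90.8 to 92.6 CPM in MV411 controls, and DUSP6 at 37.0 to 42.2 and 65.4 to 71.2 CPM. MYC went the other way, with 799 to 821 CPM in MOLM13 controls and 589 to 611 CPM in MV411 controls. SLC7A11, the cystine importer, moved in opposite directions: in MOLM13 it was at 41.8, 38.2 and 32.2 CPM in DMSO and 13.6, 12 and 13.5 CPM in SGI-7079, and in MV411 at 15, 14 and 10.9 CPM and 54.2, 59 and 63.6 CPM (difference -3.67, SE 0.17, adjusted p = 1.97e-08). It was among 17 genes (0.0793%) called in opposite directions in the 2 lines, a count that fell to 9 without MOLM13 treated replicate 2.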

How the data were processed

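Poly(A) RNA of MOLM13 and MV411 cells was sequenced in 12 libraries, 3 in each of 4 groups, with strand-marked paired-end libraries per the labels' protocols. The authors deposited 1 table with whole-number counts per gene and FPKM values (fragments scaled by gene length and depth) for each library, per the file headers. The submitters' processing notes name cutadapt 1.9, HISAT2 2.2.1, StringTie 2.1.6, DESeq2, edgeR and the build hg38, and the series design names featureCounts for the counts; whether strand was used in counting is not stated there.

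The counts of the 6 MOLM13 libraries were scaled by TMM, filtered with filterByExpr (minimum count 10) and tested with edgeR 4.0.16 (quasi-likelihood F-test, R 4.3.3, Benjamini-Hochberg adjustment over all genes tested). "Rose" and "fell" mean an adjusted p under 0.05, and "called" adds an absolute log2 fold change over 1, the study's thresholds. A call said to be lost refers to the adjusted p alone. Standard errors (SE) were taken from the F statistic, as the size of the log2 fold change over the root of F. The difference between lines is the interaction in a fit of all 12 libraries. DESeq2 1.42.0 and limma 3.58.1 served as alternatives, the latter on log2(FPKM + 0.1) and log2(FPKM + 1). Of these, only the edgeR fit of the MOLM13 groups was tested on simulated counts. Far fewer genes were changed there than in these data, evenly in both directions, so that it does not cover the scaling question.

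Genes could be named if they ranked among the top 15 rises or falls called at 5 CPM or more, or the top 12 at 100 CPM or more, with no overlap between groups. Also eligible were the 5 lowest adjusted p-values per direction within a list, all members of lists of up to 20 genes, and 20 fixed genes; of these, those that describe a group are printed. Clone names, antisense genes and pseudogenes were left out of the first 2 sets. The members and the 43 gene lists were chosen with earlier results of these data known, so that no list is independent evidence of its direction.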

Additional observations from a re-analysis of the deposited data

Results flagged for a closer look

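For each of these genes the effect of SGI-7079 differed between MOLM13 and MV411 by edgeR's interaction test over all 12 libraries, at an adjusted p under 0.05. Differences are MOLM13 minus MV411 on the log2 scale. Among the 20 genes fixed for this comparison, the effect was more positive in MOLM13 for PIM1 (1.52), GAS6 (1.22), DUSP6 (1.00), CSF1R (1.00), MYC (0.58), FLT3 (0.57), CISH (0.47), CCND3 (0.34) and MEIS1 (0.28). It was more negative for AXL (-0.65), CDKN1B (-0.35) and KMT2A (-0.30). The difference of KMT2A did not pass without MOLM13 control replicate 2 or 3 or MOLM13 treated replicate 1 or 3, with adjusted p from 0.0533 to 0.0617.

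The remaining genes were called in opposite directions in the 2 lines. SLC7A11 had a difference of -3.67. RGS3, a regulator of G protein signalling, had -3.92, BIN1, a membrane-bending adaptor, -2.90, and SLC8A1, a sodium-calcium exchanger, -2.67. RGS3, BIN1 and SLC8A1 were under 3 CPM in every MOLM13 library. The MOLM13 groups of RGS3 overlapped, with 1.29, 1.10 and 0.317 CPM in DMSO and 0.262, 0.229 and 0.498 CPM in SGI-7079. HAPLN4 had 0 counts in the MOLM13 control libraries and only 0.070, 0.0983 and 0.313 CPM in the treated ones (adjusted p of the difference 0.000281). GASK1B had 0.0922, 0.145 and 0.0881 CPM in the MOLM13 control libraries and 0 counts in the treated ones (adjusted p of the difference 1.84e-05). No fold is given for either, and both reached 5 CPM only in MV411.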

How the results depend on the processing

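Of 197 genes named from the MOLM13 comparison, 2891 of 2953 values under the alternatives kept their direction and their side of the threshold. CD14, not past the test, turned to -0.20, -0.081 and -0.266 without control replicate 1, control replicate 3 or treated replicate 1 (leave-one-out range -0.266 to 0.921), and BCL2, also not past it, to -0.012 without control replicate 1 (range -0.012 to 0.057). The calls of KMT2A, CDKN2C, PPT1, SOCS2, BCL2L1 and MCOLN1 were lost on FPKM and with no scaling beyond the total count (adjusted p from 0.0568 to 0.869), and those of CDKN1B, EGR1, CYBA and VCAN on at least 1 FPKM setting (adjusted p from 0.0515 to 0.0581). SOCS2 also lost its call in the fit of all 12 libraries (adjusted p = 0.11) and with at least 1 CPM in 3 libraries (0.119). RNASE3 lost its call with DESeq2 and in the fit of all 12 libraries (0.0821), CDKN1C with no filter, and both under the replicate block (adjusted p from 0.0575 to 0.0692). SOCS3, MAX, AMT and BCL2 passed under at least 1 alternative and not in the main comparison.

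With limma on log2(FPKM + 1), 269 genes were called higher and 244 lower; the larger pseudocount shrinks folds of low genes. No scaling moved the median of all genes from 0.039 to 0.126 and the share that rose among changed genes from 47.9% to 56.8%; on FPKM it was 57.8% and 57.6%. Of 1290 counts of list members that rose or fell, 69 moved by over 1.5 times, 9 of them with no scaling. DESeq2 called 1800 higher and 745 lower. Leaving out each library gave 1490 to 1749 called higher and 683 to 765 lower. Without the filter, 1261 differences between lines were negative and 9 genes opposite; leave-one-out ranges were 1200 to 1789 and 9 to 19, and the positive share went from 57.1% to at most 73.0%; the cause was not tested. With adjusted p alone as the threshold, promoter shares were 10.7% (lower) and 9.21% (higher) for TTTGAA, 1.83% (higher) for TTTCCCGC, 1.68% (lower) for TTTGGCGC, 2.87% (higher) for TGTTTAC and 38.6% (lower) for CCAAT; these sets include smaller changes.

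Deviations of libraries with the same replicate number had correlations of 0.001, 0.030 and 0.022, and those with unlike numbers of -0.033 to 0.011. Such small values cannot tell whether libraries of the same number were handled together. With the replicate number as a block, 4562 genes rose, 5079 fell, 1571 were called higher and 701 lower. The differences between lines were then 2271 positive and 1692 negative, with 20 opposite.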
